A study of Capsicum annuum with 2 samples.

Results

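The set described here holds 74 of the 11387 unigenes in the deposited table. A unigene is a transcript sequence assembled from the reads of both lines. The 74 were chosen by their reads alone, as unigenes with at most 3 reads from the restorer line and at least 50 but fewer than 1000 reads from the cytoplasmic male sterile (CMS) line. These are called restorer reads and CMS reads below. They make up 0.650% of the listed unigenes and 1.71% of those higher in the CMS line. The reads in these libraries set the membership, so read numbers, RPKM and fold differences are given as a description and were not tested.

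The libraries came from anthers of chili pepper (Capsicum annuum L.). One was from the CMS line 121A, and the other from its near-isogenic restorer line 121C. By the study's methods, both lines carry the cytoplasm of the same sterile source, were backcrossed repeatedly to the same inbred line and grew in the same greenhouse season, and 121C carries in addition a dominant restorer gene. For each line, anther RNA of pooled plants and of several bud phases was mixed into 1 library, so no difference in the reads has a replicate check.

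Cytoplasmic male sterility is inherited through the mother with the mitochondria, and the affected flowers shed no viable pollen. A restorer allele in the nucleus makes such flowers fertile again, often by acting on the transcript of a mitochondrial sterility gene. The anther holds several tissues, among them the tapetum that feeds the developing pollen. A transcript read in 1 anther RNA pool and nearly absent from the other can differ in RNA per cell or in the number of cells that hold it. In mixed anther RNA these cannot be told apart. The labelled tissue could not be checked against anther markers, because 0 of the 317 listed unigenes with an annotation used here carried an anther or pollen keyword. That annotation covers only part of the study's list, so the count does not describe the listed unigenes outside it.

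For 3 of the 74 unigenes the study designed RT-PCR primers. These are comp75836_c0_seq1, which the study describes as an ARF GTPase activator, and comp59182_c0_seq1 and comp61557_c1_seq1, for which it gives no description. ARF GTPase activators switch off the small GTPases that direct the budding of transport vesicles. The primers are shown because they are the sequences that identify these unigenes here. They are written 5′ to 3′, and capitals mark the 5 bases at the 3′ end, from which the polymerase extends.
comp75836_c0_seq1, forward: aatggtaagatgacccaAGACA
comp75836_c0_seq1, reverse: aaatacagcaagcgaagAAAGG
comp59182_c0_seq1, forward: catatttcgaccaccTAACG
comp59182_c0_seq1, reverse: cacaaccataatgagCCAAC
comp61557_c1_seq1, forward: aaatctggctaatagGCACT
comp61557_c1_seq1, reverse: ctcgcacttggttatGGAAT
The primers of comp75836_c0_seq1 are 22 bases long, and the others are 20 bases long. Their GC content ranges from 40.0% to 45.0%.

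The ARF GTPase activator unigene comp75836_c0_seq1 (920 bp) had 271 CMS reads and 0 restorer reads. Its CMS level was 27.4 RPKM, that is reads scaled by unigene length and by all reads counted in the library. It was the third by reads among the 74. Its level was at least 64.9-fold higher in the CMS library by the 95% Clopper-Pearson interval, whose lower limit this is. Such intervals cover counting error only. For comp59182_c0_seq1 (1791 bp) 133 CMS reads and 0 restorer reads were counted, and the lower limit was 31.6-fold. For comp61557_c1_seq1 (568 bp) the deposited reads were 106 and 0, and the lower limit was 25.1-fold. None of the 3 had a restorer read in the deposited table. A different restorer count for comp61557_c1_seq1 stands elsewhere in the study, so the absence of its restorer reads and the limit that rests on it are uncertain.

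The 74 unigenes held 7079 reads in the CMS line, 0.0659% of the 10744829 reads counted there. In the restorer line they held 83 of 9552875 reads. Most lay near the lower limit of the set. The median was 67.5 reads (quartiles 58 and 96.75), and 58 unigenes had fewer than 100 reads. There were 11 unigenes with at least 100 and fewer than 200 reads and 5 with at least 200. The 5 with most reads held 24.7% of the reads of the set in the CMS line.

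**Figure D1:**
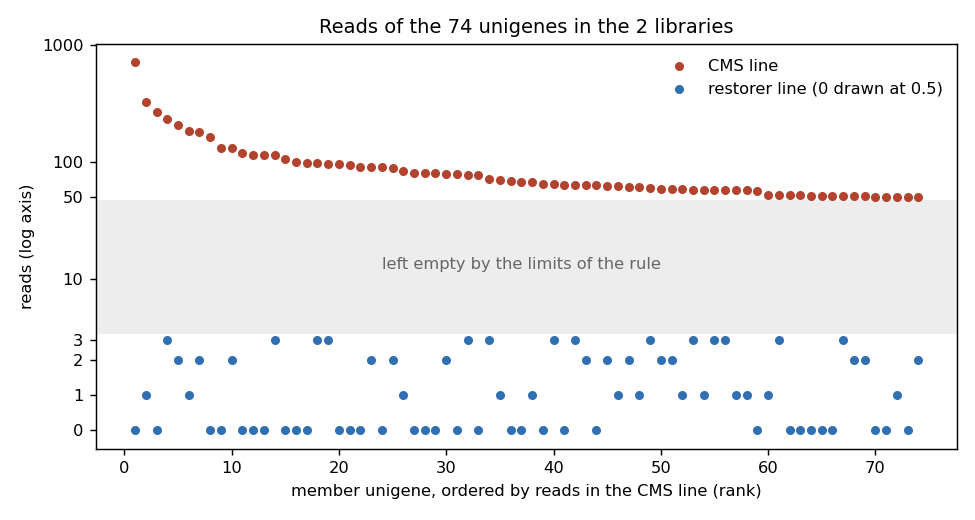
CMS reads (red) and restorer reads (blue) of each of the 74 unigenes, on a log axis with 0 drawn at 0.5, ordered by reads in the CMS line. CMS reads run from 715 down to 50, restorer reads lie from 0 to 3, and the grey band is empty because the limits of the set exclude it.

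The unigene with most reads, comp62752_c0_seq1 (649 bp), had 715 CMS reads and 0 restorer reads. It also had the highest level, 102.5 RPKM. It was followed by comp52849_c0_seq1 (352 bp), with 327 CMS reads, 1 restorer read and a CMS level of 86.5 RPKM. The longest unigene of the set, comp42779_c0_seq1 (3150 bp), had 232 and 3 reads, and its level was 6.85 RPKM. For comp55406_c0_seq1 (688 bp) 207 CMS reads and 2 restorer reads were counted. The order by RPKM differed from the order by reads because of length. The shortest unigene, comp26670_c0_seq1 (206 bp), had 165 and 0 reads and was the third by level, at 74.5 RPKM. Next came comp68122_c0_seq1 (284 bp), with 100 and 0 reads and 32.8 RPKM, and comp40223_c1_seq1 (335 bp), with 114 and 3 reads and 31.7 RPKM. Of the 5 highest levels, 4 belonged to unigenes shorter than 500 bp. None of the annotation used here covers these unigenes.

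In the CMS line the levels ranged from 3.11 to 102.5 RPKM, with a median of 8.45 RPKM (quartiles 5.54 and 12.3). At least 10 RPKM was reached by 28 unigenes and at least 50 RPKM by 3. In the restorer line the median was 0.0918 RPKM. The highest restorer level was 1.45 RPKM, for comp61778_c2_seq1 (217 bp), with 60 CMS and 3 restorer reads, and it was the only one of the 74 above 1 RPKM there. A unigene with 0 reads may still be present. For the 33 unigenes with 0 restorer reads, the 3 reads that a count of 0 allows correspond to 0.175 to 1.52 RPKM, depending on length. The upper end is that of the shortest unigene, comp26670_c0_seq1.

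The restorer reads were 0 for 33 unigenes (44.6%), 1 for 13, 2 for 14 and 3 for 14. Unigenes with 0 restorer reads had a median of 80 reads in the CMS line (range 50 to 715). Those with 1, 2 and 3 restorer reads had medians of 61, 63 and 64.5 reads. The ranges of all 4 classes overlapped.

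All 74 unigenes were higher in the CMS line, which the limits of the set fix, and 38.0% of all listed unigenes were. With 0.5 read in place of 0, the median log2 ratio was 6.26. As this value depends on the treatment of 0, the lower 95% limit of the fold was used to describe the size of the difference. It ranged from 4.89 to 171.9, with a median of 11.7. The limit was at least 10-fold for 45 of the 74 (60.8%). Over all listed unigenes it was so for 81 (0.711%), and these include the 45. The lower limit rests on the same reads that chose the set, so a higher share among the 74 is built in. Of the 74, 19 had a lower limit of at least 20-fold, 3 of at least 50-fold and 1 of at least 100-fold.

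**Figure D2:**
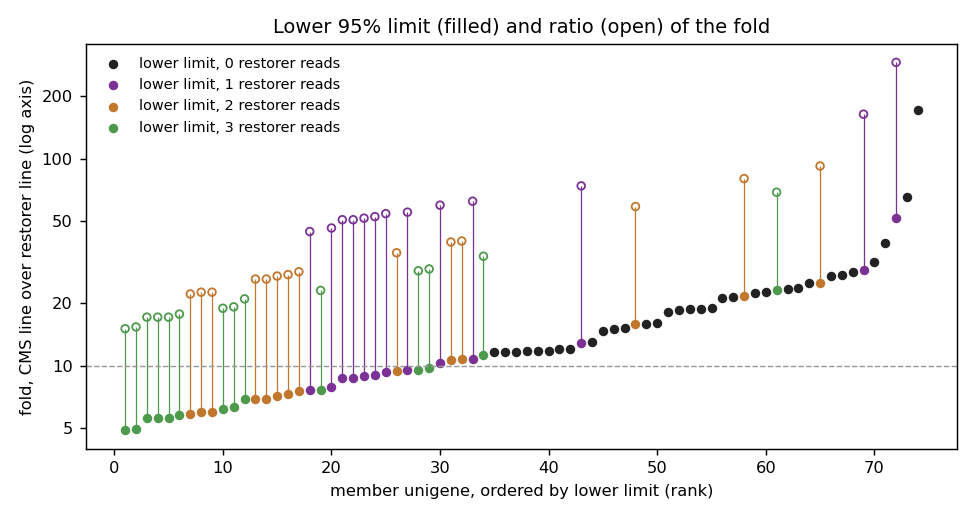
Lower 95% Clopper-Pearson limit of the fold, CMS line over restorer line (filled points), and the ratio itself where it can be computed (open points), on a log axis, for the 74 unigenes ordered by the lower limit. Colours give the restorer reads, and the dashed line marks 10-fold. The black points, unigenes with 0 restorer reads, all lie above 10-fold, which the limits of the set fix.

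All 33 unigenes without restorer reads passed a lower limit of 10-fold, with a range of 11.6 to 171.9. The limits of the set fix this, since 50 CMS reads and 0 restorer reads already give 11.6-fold. Of the 41 with 1 to 3 restorer reads, 12 passed 10-fold. The ratios of these 41 ranged from 15.1 to 290.7, with a median of 33.8. The interval of the largest ratio, that of comp52849_c0_seq1, was 51.8 to 11518. The upper limit was thus poorly defined, and the ratios of unigenes with 1 to 3 restorer reads can be ordered only roughly. The 5 largest lower limits belonged to comp62752_c0_seq1, comp75836_c0_seq1, comp52849_c0_seq1, comp26670_c0_seq1 and comp59182_c0_seq1. In this order they were 171.9, 64.9, 51.8, 39.3 and 31.6. All but comp52849_c0_seq1 had 0 reads in the restorer line.

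Just inside the lower limit of CMS reads, 5 unigenes of the set had 50 CMS reads. Among them were comp27732_c0_seq1 (497 bp) and comp28573_c0_seq1 (670 bp), both with 0 restorer reads and a lower limit of 11.6-fold. Just outside, 3 unigenes with at most 3 restorer reads had 49 CMS reads. One was comp39415_c0_seq1, with 2 restorer reads and an interval of 5.72 to 185-fold. Of the 14 unigenes with 3 restorer reads, comp42779_c0_seq1 had the most CMS reads, and its ratio had an interval of 23.2 to 335.8-fold. With 4 restorer reads 21 unigenes were left out. Among them comp56338_c0_seq1, with 116 CMS reads, had an interval of 9.80 to 96.2-fold. Above the upper limit lay only 3 unigenes with at most 3 restorer reads. They were comp63387_c0_seq1 with 1286 and 0 reads, comp51043_c0_seq1 with 1505 and 2 reads, and comp54881_c1_seq1 with 1654 and 0 reads.

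The table lists only unigenes that the authors called different, and this did not cut the set. At 3 restorer reads, unigenes were listed from 22 CMS reads upwards, and at 0 restorer reads from 15. Both lie well below 50. The same holds for the mirrored set, unigenes with at most 3 CMS reads and at least 50 but fewer than 1000 restorer reads, where the listing began at 19 restorer reads for 3 CMS reads.

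The mirrored set was much larger. It held 1252 unigenes, 16.9 for each of the 74. Of the listed unigenes higher in the CMS line with CMS reads in this range, 2.93% had at most 3 restorer reads. Of those higher in the restorer line with restorer reads in this range, 34.3% had at most 3 CMS reads. In the mirrored set 65.8% had 0 reads in the other line, against 44.6% of the 74. A lower limit of 10-fold was passed by 96.0% of the mirrored set and by 60.8% of the 74. This limit rises with the reads in the higher line, and the mirrored set had more of them (median 108, against 67.5). The shares past 10-fold were not compared at equal reads. With 4 to 9 reads in the other line, there were 190 unigenes in the CMS direction and 304 in the restorer direction. As each line has 1 library, these counts compare libraries and carry no test. The abundance of comp48143_c0_seq1, 32.3% of the CMS library and 1.27% of the restorer library, differs in the same comparison, and its part in these counts was not tested. When the CMS reads were scaled by the totals without it, which was decided once the values were known, 120 unigenes met the limits.

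**Figure D3:**
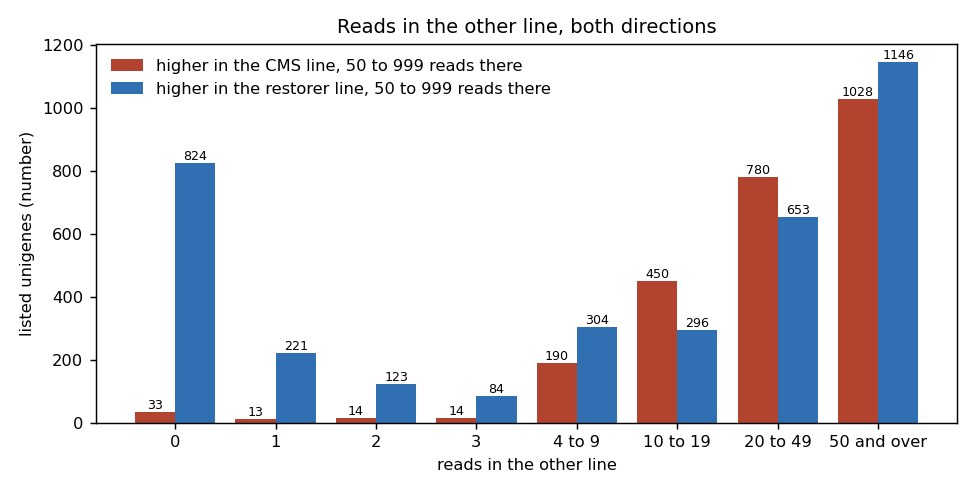
Number of listed unigenes by their reads in the other line, higher in the CMS line (red) or in the restorer line (blue) with at least 50 and fewer than 1000 reads in that line. The 4 red bars from 0 to 3 are the 74 unigenes (33, 13, 14 and 14), and the blue bars there (824, 221, 123 and 84) are the mirrored set.

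Length and annotation were not used to choose the unigenes. Lengths, recovered from reads and RPKM, had a median of 788.5 bp (quartiles 571.5 and 1152.5) and ran from 206 to 3150 bp. Shorter than 500 bp were 15 unigenes (20.3%). The longest were comp42779_c0_seq1 (3150 bp), comp59182_c0_seq1 (1791 bp) and comp39554_c0_seq1 (1747 bp), the last with 120 and 0 reads. The shortest were comp26670_c0_seq1 (206 bp), comp61778_c2_seq1 (217 bp) and comp85694_c0_seq1 (250 bp), the last with 61 CMS reads and 1 restorer read. The median over all listed unigenes was 865 bp. It was 839.5 bp in the mirrored set and 1202.5 bp for the other 2448 unigenes higher in the CMS line with CMS reads in the range of the set.

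Since longer unigenes collect more reads, lengths were also set side by side at 50 to 99 reads in the higher line. There the median was 807.5 bp for 58 of the 74 (quartiles 599.5 and 1152.5) and 934 bp for 913 others higher in the CMS line (quartiles 664 and 1302). In the mirrored set it was 763 bp over 559 unigenes. Among the others, the median was 825 bp at 4 to 9 reads, 885 bp at 10 to 19 and 1081 bp at 20 and over. The quartile ranges of all these groups overlapped.

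The annotation used here covers names from the start of the study's list, and 7 of the 74 unigenes have names in that stretch. Of these 7, 2 were annotated, a share of 28.6% (exact 95% binomial interval 3.67 to 71.0%). Over all listed unigenes in the stretch it was 27.5%, or 317 of 1151. Among the others higher in the CMS line with 50 to 99 reads, 45 of 55 were annotated (81.8%, interval 69.1 to 90.9%). In the mirrored set at 50 to 99 reads the share was 24 of 95 (25.3%, interval 16.9 to 35.2%). The interval for the 7 is wide. It contains that of the mirrored set and overlaps that of the 55 only between 69.1 and 71.0%. Overlap of intervals does not measure a difference between shares, and none was tested. The lengths of the 7, 769 to 1610 bp with a median of 1139 bp, lay within the range of the 55, which had a median of 1251 bp.

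**Figure D4:**
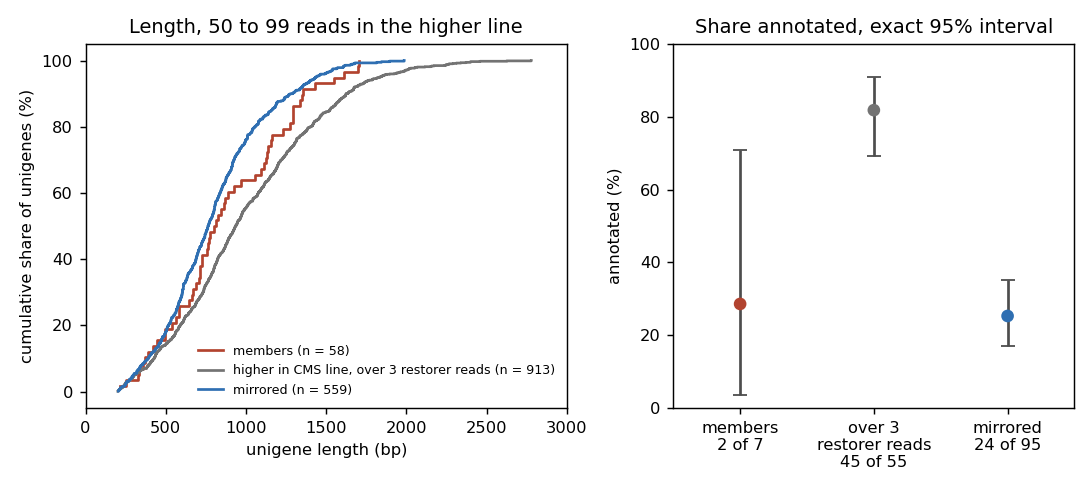
Left, cumulative share of unigenes by length (bp) at 50 to 99 reads in the higher line, for 58 of the 74 unigenes (red), 913 others higher in the CMS line (grey) and 559 of the mirrored set (blue). Right, share of unigenes with an annotation in the covered stretch of names with exact 95% intervals, 2 of 7, 45 of 55 and 24 of 95.

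The members annotated in this stretch were a floral regulator and an enzyme. The unigene comp75836_c0_seq1, for which the study's description is given above, lies outside the stretch. The best match of comp105908_c0_seq1 (769 bp) was CRABS CLAW of tobacco. In Arabidopsis, CRABS CLAW is a transcription factor of the YABBY family that acts in the development of carpels and nectaries. This unigene had 77 CMS reads (9.32 RPKM) and 0 restorer reads, with a lower limit of 18.1-fold. The other, comp136288_c0_seq1 (1057 bp), matched a putative glycosyltransferase of castor bean. Enzymes of this class attach sugars to proteins, lipids or small molecules. It had 59 reads (5.19 RPKM) and 2 reads, a ratio of 26.2 (interval 6.95 to 221.6). The 5 members without an annotation in the stretch were comp111927_c0_seq1, comp114107_c0_seq1, comp130950_c0_seq1, comp140755_c0_seq1 and comp23062_c0_seq1, with 52 to 90 CMS reads and 0 to 3 restorer reads. Neither annotation held a keyword of the groups searched, such as PPR and F-box proteins, oxidative enzymes, respiration, disease resistance and transposable elements. With 2 annotations, this says nothing about the other 72 unigenes.

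In Trinity names, comp is the number of a component, a group of overlapping assembled contigs, and c is a separate part of its graph. Each listed unigene was the only one of its comp and c numbers. The 74 unigenes fell into 72 components. For 54 of them no other unigene of the component was listed, and the other 20 shared 18 components with listed unigenes, 27.0% of the set. This share was 23.1% in the mirrored set and 22.2% for the other 2448 unigenes higher in the CMS line. The files do not show whether the unigenes of a component come from 1 gene, nor how reads that match several of them were assigned. Unigenes that the authors did not call different are not listed, so any such mates are missing from the sums and counts of components.

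The component held several members in 2 cases. The unigenes comp50994_c0_seq1 (1115 bp) and comp50994_c1_seq1 (728 bp) had 52 and 51 CMS reads and 0 restorer reads each. Of the other pair, comp55336_c0_seq1 (1705 bp) had 57 CMS reads and 1 restorer read, and comp55336_c2_seq1 (1696 bp) had 99 CMS reads and 3 restorer reads. Within each pair both unigenes were nearly absent from the restorer line. The reads summed over comp50994 gave a lower limit of 4.61 on the log2 scale, and those over comp55336 a log2 ratio of 5.12 (interval 3.73 to 7.01).

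In 9 components, these included, every listed unigene had at most 3 restorer reads. The 7 mates in them that are not members had 16 to 33 CMS reads and 0 restorer reads in all 7. They missed the set through their CMS reads. The member comp42779_c0_seq1, for example, had a mate of 607 bp, comp42779_c1_seq1, with 33 and 0 reads.

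In 6 components all listed mates were also higher in the CMS line, and at least 1 had more than 3 restorer reads. These 10 mates had 3 to 221 restorer reads. The member comp61557_c1_seq1, which was selected for RT-PCR, had 106 and 0 reads. Its mates comp61557_c2_seq1 (628 bp) and comp61557_c5_seq1 (923 bp) had 110 and 117 CMS reads and 41 and 46 restorer reads. Summed over the listed unigenes of the component, the log2 ratio was 1.77 (interval 1.42 to 2.12), while the lower limit for the member alone was 25.1-fold. The member comp40223_c1_seq1 held 13.3% of the CMS reads of the listed unigenes of its component. Its mates comp40223_c0_seq1 and comp40223_c2_seq1 had 532 and 211 CMS reads and 221 and 36 restorer reads, and the summed log2 ratio was 1.55. In the other 4 components, comp51106, comp52779, comp55288 and comp61125, the summed log2 ratio was 2.27, 2.41, 1.76 and 3.76. In all 6 the ratio of the summed reads was smaller than that of the member. This is largely built in, since members were chosen for few restorer reads and these components for a mate with more.

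In 3 components a member stood beside unigenes higher in the restorer line. The member comp57398_c1_seq1 (707 bp) had 67 and 1 reads, and its mate comp57398_c0_seq1 (421 bp) had 7 and 30 reads. In comp61318 the member comp61318_c7_seq1 (324 bp) had 51 and 2 reads, and comp61318_c5_seq1 (2458 bp) had 0 and 104 reads. The most mates were listed for comp61584. There the member comp61584_c4_seq1 (763 bp) had 50 and 2 reads, while comp61584_c1_seq1 had 0 and 95, comp61584_c3_seq1 had 8 and 62 and comp61584_c9_seq1 had 0 and 16. After summing, comp57398 stayed on the CMS side, at a log2 ratio of 1.09 (interval 0.46 to 1.74). The sums of comp61318 and comp61584 were higher in the restorer line, with log2 ratios of -1.23 (interval -1.74 to -0.73) and -1.76 (interval -2.22 to -1.33). Such mates were found for 4.05% of the 74 unigenes, 6.09% of the other 2448 unigenes higher in the CMS line and 2.88% of the mirrored set. With 3 unigenes, the share of the 74 does not set them apart from these groups.

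**Figure D5:**
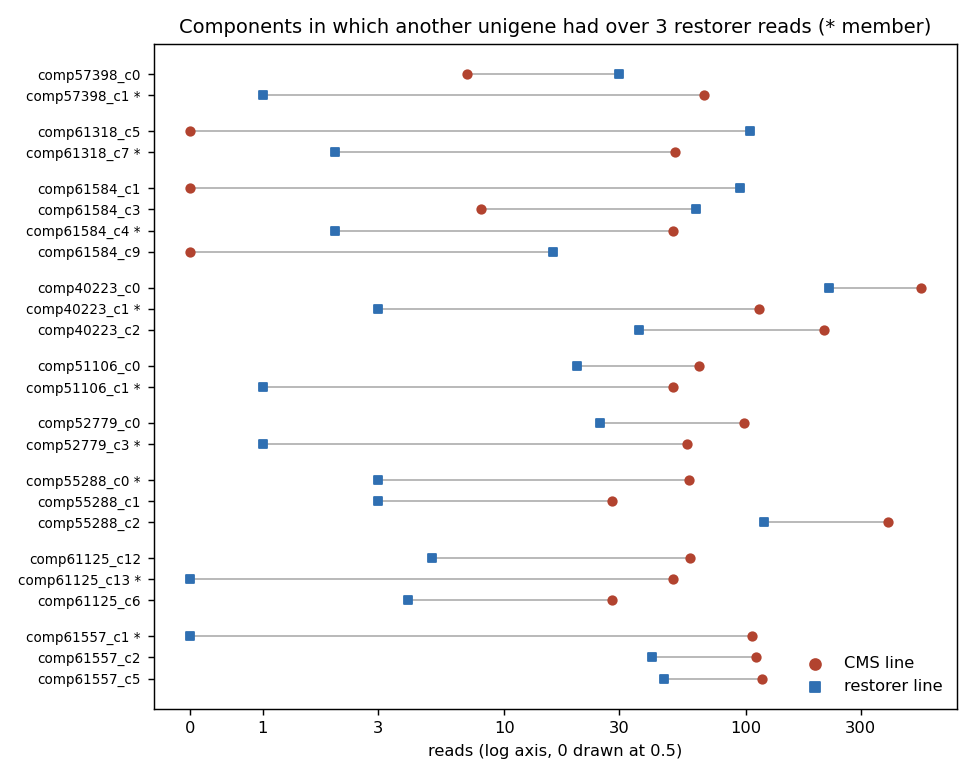
Reads in the CMS line (red circles) and the restorer line (blue squares) of the listed unigenes of the 9 components in which a mate of a member had over 3 restorer reads, on a log axis with 0 drawn at 0.5. Asterisks mark members. In the upper 3 components the mates had more restorer than CMS reads, and in the lower 6 they were also higher in the CMS line.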

How the data were processed

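Reads were called with CASAVA. By the study's methods, reads with many low-quality bases and short reads were removed and the rest assembled with Trinity. The authors deposited counts, the whole number of reads per unigene, and RPKM computed by the authors from these counts. The aligner and counting rule are not given in the sources used here. The deposited comparison columns (log2 ratio, q-value, direction) were not used.

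The total of each library was derived from counts and RPKM, since lengths are whole numbers (largest deviation 4.0e-06 bp). Clopper-Pearson intervals at the 95% level of the CMS share of the reads were converted to ratios per library total, and cover counting error only. Annotation came from 1999 entries of the study's list. With 1 library per line no test was run. Python 3.11.15, numpy 2.4.6, pandas 2.3.3 and scipy 1.17.1 were used.

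The members, lists and alternatives were chosen with earlier results of these data known. Named unigenes are those selected for RT-PCR, the 5 with most reads, highest RPKM or largest lower limit, the 3 longest and shortest, the annotated ones, those of components with several members or opposite unigenes, and those at the limits of the set. The component mates comp42779_c1_seq1, of comp61557 and of comp40223, and the unannotated members within the annotated stretch, were named after their values were seen. The alternatives were other read limits, scalings, pseudocounts, interval levels, a minimum RPKM or length, and other groupings of the names.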

Additional observations from a re-analysis of the deposited data

How the results depend on the processing

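No paired analysis was possible because each line has 1 library. For the same reason no replicate could be left out. With 0 restorer reads as the limit, 33 unigenes met it, with a median lower limit of 18.8-fold, 1 component with several members, 0 with an opposite unigene and 1 annotated member. With at most 1 read these were 46 unigenes, 1 and 1 component and 1 annotated member. With at most 5 reads there were 126 unigenes, a median lower limit of 7.85-fold, 8 components with an opposite unigene and 5 annotated members. With at least 100 CMS reads, 16 unigenes were left, all 16 past 10-fold, with a median lower limit of 27.4-fold, and 0 components of either kind and 0 annotated members. Scaling the CMS reads to the restorer total left 58 unigenes, with 1 component of each kind, and scaling by totals without comp48143_c0_seq1 gave 120. With comp and c numbers together there were 0 components of either kind, by construction. A pseudocount of 1 RPKM lowered the median log2 ratio to 2.99, and that of 17 of the 24 named members fell below their intervals. Totals without the 10 unigenes of most reads per library raised all log2 ratios by 0.43, and 58 unigenes then passed 10-fold. The median length was 726.5 to 920 bp over all alternatives run for it. With 0 restorer reads set at 3, an alternative added later, the plain ratio took the place of the lower limit for those unigenes. The median of these ratios and the other lower limits together was 14.8-fold, so it is not a median of lower limits. With 99% intervals the median lower limit was 8.16-fold, and 30 unigenes passed 10-fold. With reads summed over the listed unigenes of each component, 67 components met the limits. The read limits fix the direction of the members under each scaling run, so its stability is no result. Few reads limit the set, since 25 of the 74 unigenes had 50 to 59 CMS reads.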
